A study of Mus musculus with 12 samples.

Results

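Amino acid transporters are described here through 9 genes, chosen by Ensembl gene ID as plasma membrane carriers of amino acids. Earlier results of these data were known at the choice, so counts of these genes beside shares of all genes are descriptions only. The 9 genes are Slc7a5, Slc3a2, Slc7a6, Slc7a11, Slc7a1, Slc1a5, Slc1a4, Slc38a1 and Slc38a2, 9 of the 22520 gene IDs in the count tables. All 9 had reads, and 8 of them were among the 6692 genes that passed the filter on low counts and were tested. Slc7a11, with 49 reads in all 12 libraries together, did not pass and is given as counts.

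The genes were read out by ribosome profiling, which sequences the pieces of mRNA that ribosomes shield from nuclease, in a mouse B cell lymphoma line. Cells carried the ribosomal protein RPL12 with serine 38 replaced by alanine (S38A), with serine 38 replaced by aspartate (S38D), or as wild type (WT). Each genotype was harvested in mitosis, after nocodazole at 100 ng/mL for 8 hr and a release of 10 min into fresh medium, and as an asynchronous culture, which gave 6 groups of 2 libraries. The series title names phosphorylation of RPL12 and translation during mitosis as its subject. The line, 19PP, came from a Rag2-/-γC-/- mouse that had received bone marrow cells carrying Cγ1-Cre and Myc/P110*flSTOP, and all 6 groups share this origin, so every library is of 1 lymphoma line with these alleles. The growth protocol states that the cells grown were 19DN, a subline sorted after Flp had removed the GFP and hCD2 reporters, while the sample characteristics name 19PP. The sources used here give neither how the RPL12 alleles were introduced nor how many clones stand for each. They do not state that both libraries of a group are separate cultures, and p-values therefore measure only how far these libraries spread, which may be technical. Every mitotic library had nocodazole and release and no asynchronous library is labelled as having them, so mitosis and the drug cannot be told apart.

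Cells take up most amino acids through carriers of the plasma membrane, and growing lymphocytes and lymphomas are known for a high demand for leucine, arginine, glutamine and cystine. One group of carriers works as pairs of a heavy chain, encoded by Slc3a2, and a light chain that carries the substrate, encoded by genes such as Slc7a5, Slc7a6 and Slc7a11. The others work without the heavy chain: some exchange one amino acid for another, some bring it in together with sodium, and the arginine carrier encoded by Slc7a1 needs neither. Footprints reflect both the amount of an mRNA and how densely ribosomes sit on it, and these cannot be told apart here, where no RNA-seq was analysed.

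The heavy chain gene Slc3a2 (ENSMUSG00000010095.13) lies at chr19:8706882-8723369 in GRCm38.p6 and encodes CD98, which brings its light chains to the cell surface. Slc7a5 (ENSMUSG00000040010.10, chr8:121881146-121907686) encodes LAT1, which exchanges large neutral amino acids such as leucine. Slc7a6 (ENSMUSG00000031904.5, chr8:106168219-106198714) encodes y+LAT2, which exports arginine in exchange for glutamine and other neutral amino acids. Slc7a11 (ENSMUSG00000027737.10, chr3:50364936-50499087) encodes xCT, which takes up cystine in exchange for glutamate. Slc7a1 (ENSMUSG00000041313.14, chr5:148327410-148399904) encodes CAT1, a carrier of arginine and lysine that needs no heavy chain. Slc1a5 (ENSMUSG00000001918.17, chr7:16781334-16798274) encodes ASCT2, an exchanger of glutamine and other neutral amino acids, and Slc1a4 (ENSMUSG00000020142.12, chr11:20302180-20332713) encodes the related ASCT1, which carries alanine, serine and cysteine. Slc38a1 (ENSMUSG00000023169.14, chr15:96571418-96643438) and Slc38a2 (ENSMUSG00000022462.6, chr15:96687392-96699728) encode SNAT1 and SNAT2, which bring in glutamine, alanine and similar amino acids together with sodium. Slc38a1 and Slc38a2 are neighbours, 44.0 kb apart with 2 annotated genes between them, whereas Slc7a6 and Slc7a5 are 15.7 Mb apart on the same chromosome. These positions are of whole genes, introns included, while the footprints were counted over coding exons, as the file naming has it.

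The RefSeq promoter table for GRCm38.p6 held 6 of the 9 genes and had no entry for Slc7a5, Slc1a5 and Slc38a1. Each window runs from 250 bases before an annotated start site to 50 bases after it and was searched on both strands for 4 motifs. These were CACGTG, the E-box of Myc and Max, TGATGNAAN, a composite element bound by ATF4 and C/EBP, TGACNNNGC, the core of the antioxidant response element, and TGANTCA, the AP-1 site. The windows shown are those of genes chosen by values given below, read 5′ to 3′ on the strand of the gene, with motif matches in capitals. Slc7a11 is among them although it did not pass the filter on low counts. Slc3a2 (chr19:8713848-8714147, minus strand) and Slc7a6 (chr8:106168604-106168903, plus strand, the first of its 2 windows) are shown because their footprints rose in mitotic WT and S38D cells, those of Slc7a6 also in S38A cells. Slc7a1 (chr5:148399855-148400154, minus strand, the first of its 2 windows), Slc1a4 (chr11:20332664-20332963, minus strand) and Slc7a11 (chr3:50443564-50443863, minus strand) are shown because each was lower in every mutant library than in every WT library.
Slc3a2: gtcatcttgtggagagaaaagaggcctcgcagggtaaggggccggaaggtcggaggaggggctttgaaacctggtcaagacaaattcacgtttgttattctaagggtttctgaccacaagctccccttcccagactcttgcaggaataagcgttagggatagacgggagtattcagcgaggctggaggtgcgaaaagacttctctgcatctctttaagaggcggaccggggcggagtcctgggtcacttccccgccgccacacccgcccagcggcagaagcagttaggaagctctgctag
Slc7a6: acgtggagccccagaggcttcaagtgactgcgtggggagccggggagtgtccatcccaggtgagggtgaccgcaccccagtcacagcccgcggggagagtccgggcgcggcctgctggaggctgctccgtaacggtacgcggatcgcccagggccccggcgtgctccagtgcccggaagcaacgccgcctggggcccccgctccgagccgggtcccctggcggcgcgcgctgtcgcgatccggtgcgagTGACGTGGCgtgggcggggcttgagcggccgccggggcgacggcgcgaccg
Slc7a1: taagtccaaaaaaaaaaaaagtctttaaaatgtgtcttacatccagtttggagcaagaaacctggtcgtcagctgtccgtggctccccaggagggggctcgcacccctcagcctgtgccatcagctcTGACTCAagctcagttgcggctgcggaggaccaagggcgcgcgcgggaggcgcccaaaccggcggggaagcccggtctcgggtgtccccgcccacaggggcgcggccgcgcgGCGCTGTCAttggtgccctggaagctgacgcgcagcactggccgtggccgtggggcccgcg
Slc1a4: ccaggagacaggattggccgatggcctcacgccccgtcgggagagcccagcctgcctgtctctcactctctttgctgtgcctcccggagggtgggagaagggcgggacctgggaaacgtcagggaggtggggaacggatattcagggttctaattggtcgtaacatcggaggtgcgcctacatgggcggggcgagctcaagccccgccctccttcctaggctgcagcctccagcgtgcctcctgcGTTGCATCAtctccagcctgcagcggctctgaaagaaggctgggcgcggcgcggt
Slc7a11: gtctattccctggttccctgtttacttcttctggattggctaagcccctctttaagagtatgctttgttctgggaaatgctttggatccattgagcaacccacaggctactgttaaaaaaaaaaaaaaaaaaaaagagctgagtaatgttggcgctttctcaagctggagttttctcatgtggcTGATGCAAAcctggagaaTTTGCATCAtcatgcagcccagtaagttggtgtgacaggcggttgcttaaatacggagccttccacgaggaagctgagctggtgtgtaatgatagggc

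TGATGNAAN was found in 3.95% of the 32851 windows of the table. The Slc7a11 window held it at 2 places, 66 and 48 bases before the start site, and the Slc1a4 window held it once, 5 bases before. TGACNNNGC, found in 12.4% of windows, stood in the windows of Slc7a6, Slc7a1 and Slc38a2, and TGANTCA, found in 7.81%, stood in that of Slc7a1. CACGTG, found in 7.15% of windows, matched none of those of the 6 genes, and the Slc3a2 window held none of the 4 motifs. The only start sites held for Slc3a2 and Slc7a11, 8713897 and 50443613, lie inside these minus-strand genes. Their 5′ ends are at 8723369 and 50499087 and were not searched. The start sites of Slc7a6 and of the second Slc7a1 window are also inside the gene. No matches overlapped. A match is a run of letters in this window and nothing was measured here about binding.

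The libraries held 258354 to 505500 reads in coding sequence, over 9313 to 9818 gene IDs each. Values below are CPM, the reads of a gene per 1e6 reads of the tested genes, with library sizes corrected by TMM factors, and are therefore relative to the other genes. Library totals are low for single genes, so the reads behind a value are given where they are few. The 2 libraries of a group correlated at 0.935 to 0.960 in log2 CPM across 4259 genes, which are not independent replicates. Of uniquely aligned reads, 25.6 to 34.6% in mitotic libraries and 18.0 to 25.8% in asynchronous ones lay outside the counted features, and their part in the differences between the states was not tested. A larger share was not aligned uniquely and was counted for no gene. Of unique and not unique alignments together, it was 65.8 to 73.0% in mitotic and 62.3 to 68.3% in asynchronous libraries. It was lowest in asynchronous S38A (62.3 and 62.8%), and its part was not tested either. The defining markers of B cells could not be checked, nor could RPL12 itself, because the tables used here do not pair other gene IDs with symbols.

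Among the heterodimer genes, Slc3a2 had 658 and 697 CPM in mitotic S38A, 1084 and 1024 in mitotic S38D and 993 and 969 in mitotic WT libraries. In asynchronous libraries Slc3a2 had 592 and 669.6 CPM in S38A, 706 and 729 in S38D and 743 and 657 in WT. The 4 mitotic S38D and WT libraries were thus the highest of all, and the 2 mitotic S38A libraries stayed within the range of the asynchronous ones. Slc7a5 had 371 and 426 CPM in mitotic S38A, 756 and 729.6 in mitotic S38D and 842 and 715 in mitotic WT libraries. In asynchronous libraries it had 344 and 391 CPM in S38A, 556 and 518 in S38D and 496 and 637 in WT. All 4 S38A libraries lay below the 8 others in both states. The order of the group means of Slc7a5 was mitotic WT, mitotic S38D, asynchronous WT, asynchronous S38D, mitotic S38A and asynchronous S38A, and libraries overlapped between mitotic WT and S38D, between asynchronous WT and S38D, and between the states in S38A.

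Slc7a6 had 273 and 233 CPM in mitotic S38A, 389 and 386 in mitotic S38D and 335 and 314 in mitotic WT libraries. In asynchronous libraries it had 201 and 139 CPM in S38A, 152 and 195 in S38D and 137 and 166 in WT. The 6 mitotic libraries lay above the 6 asynchronous ones in all genotypes, and the share of all genes that did so was not counted. The remaining light chain gene, Slc7a11, had only 2 to 9 reads per library. It was counted with 9.34 and 7.95 CPM in mitotic S38A, 7.63 and 7.02 in mitotic S38D and 16.8 and 23.3 in mitotic WT libraries, and with 10.4 and 9.70 CPM in S38A, 4.10 and 6.65 in S38D and 27.4 and 16.6 in WT asynchronous libraries. All 8 mutant libraries were below the 4 WT ones. Summed over both libraries, Slc7a11 had 7, 4 and 14 reads in mitotic S38A, S38D and WT cells, and 7, 5 and 12 in asynchronous S38A, S38D and WT cells. The exact 95% Poisson intervals, which cover counting error only, ran from 3.49 to 17.9 CPM in mitotic S38A and from 11.2 to 34.3 CPM in mitotic WT cells, so they overlapped.

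Slc7a1 had 539 and 524 CPM in mitotic S38A, 797 and 799.8 in mitotic S38D and 899 and 894 in mitotic WT libraries. In asynchronous libraries the arginine carrier had 636 and 592 CPM in S38A, 689 and 771 in S38D and 844 and 859 in WT. The genotypes did not overlap in either state, with S38A lowest and WT highest, and the share of all genes with such a separation was not counted. The order of the group means was mitotic WT, asynchronous WT, mitotic S38D, asynchronous S38D, asynchronous S38A and mitotic S38A.

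Slc1a5 had 381 and 487 CPM in mitotic S38A, 584 and 495 in mitotic S38D and 577 and 562 in mitotic WT libraries. In asynchronous libraries it had 600.0 and 514 CPM in S38A, 673 and 578 in S38D and 407 and 577 in WT. Its asynchronous WT libraries were the farthest apart of its pairs, with a mean of 492 ± 121 CPM (SD, n = 2). Slc1a4 had 112 and 103 CPM in mitotic S38A, 38.2 and 77.2 in mitotic S38D and 181 and 161 in mitotic WT libraries. In asynchronous libraries it had 115 and 116 CPM in S38A, 107 and 106 in S38D and 188 and 199 in WT. All 8 mutant libraries lay below all 4 WT libraries, and the 2 mitotic S38D libraries, with 10 and 22 reads, were the lowest.

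Of the sodium-coupled carriers, Slc38a1 had 152 and 140.4 CPM in mitotic S38A, 221 and 196 in mitotic S38D and 265 and 279.9 in mitotic WT libraries. In asynchronous libraries it had 102 and 100.3 CPM in S38A, 156 and 222 in S38D and 179.8 and 209 in WT. The 4 S38A libraries were the lowest of the 12. Slc38a2 had 439 and 477 CPM in mitotic S38A, 584 and 614 in mitotic S38D and 486 and 539 in mitotic WT libraries, and in asynchronous libraries 543 and 547 in S38A, 482 and 509 in S38D and 602 and 717 in WT. Its highest group was asynchronous WT and its lowest mitotic S38A, with a ratio of highest to lowest library of 1.63, the smallest of the 9 genes.

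**Figure D1:**
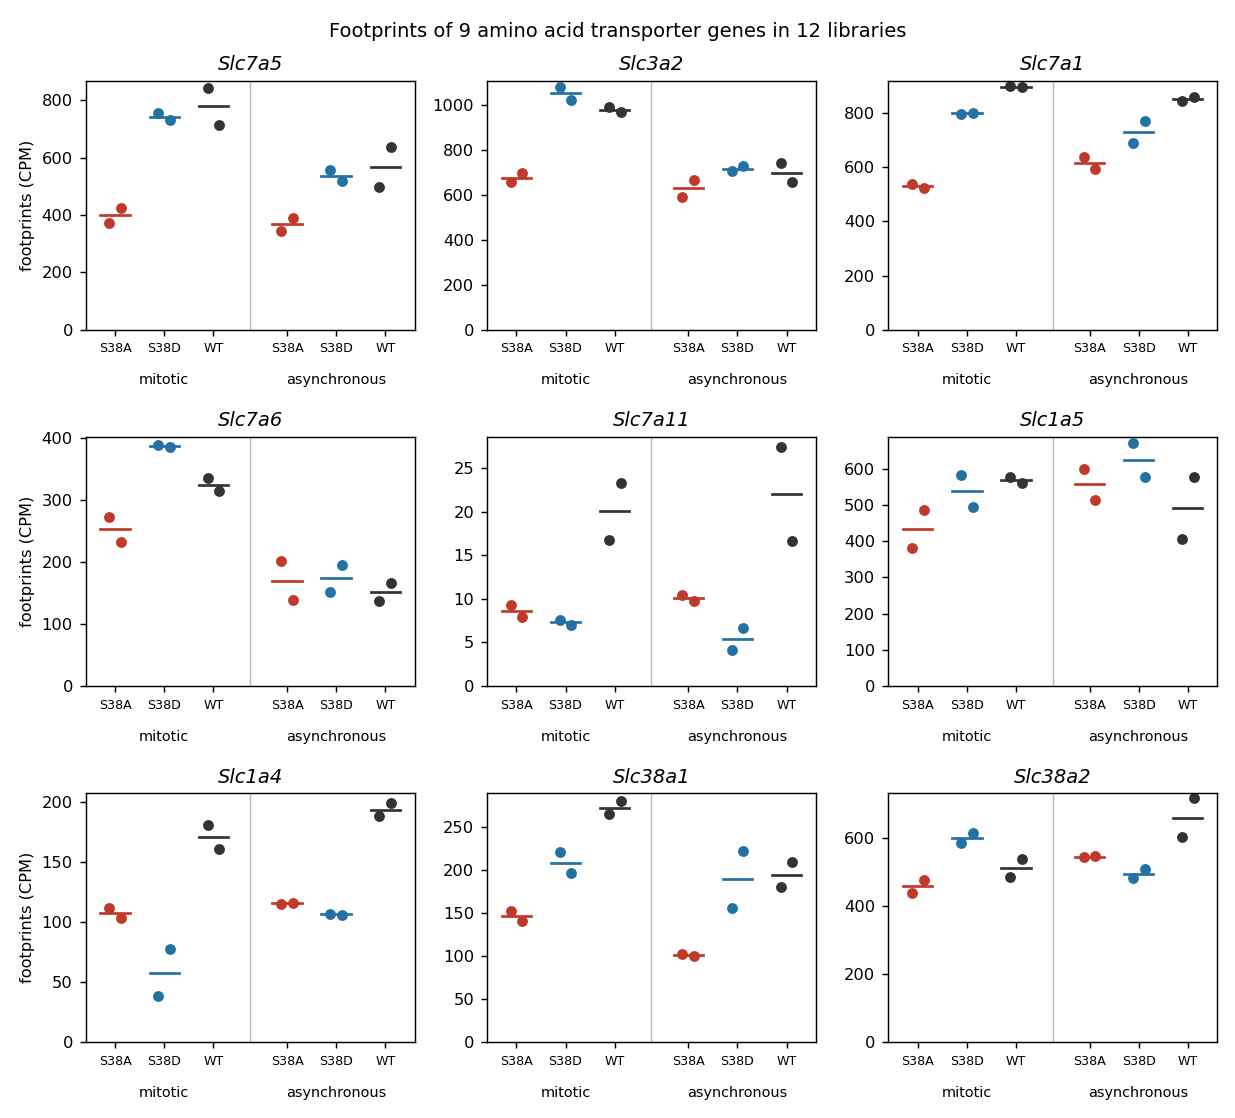
Footprints of the 9 transporter genes in CPM (vertical axes, each starting at 0), by genotype and state (horizontal axes, 2 libraries per group as points, lines at their mean). The S38A points of Slc7a5 and Slc38a1 are the lowest in both states, and the mitotic points of Slc7a6 stand above all asynchronous ones.

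Summed over the 9 genes, footprints came to 2935 and 3097 CPM in mitotic S38A, 4461 and 4329 in mitotic S38D and 4595 and 4457 in mitotic WT libraries. In asynchronous libraries the sums were 3143 and 3079.6 CPM in S38A, 3525 and 3635 in S38D and 3624 and 4037 in WT. The S38A libraries were lowest in both states, and mitotic libraries were above asynchronous ones in S38D and WT but not in S38A. The sum is dominated by the genes with most reads and was not tested.

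In mitotic against asynchronous WT cells, 3 of the 8 tested genes rose and none fell. These were the heavy chain gene Slc3a2 and its light chain genes Slc7a5 and Slc7a6, while none of the 5 carriers that need no heavy chain passed the test. Of all 6692 genes, 18.4% passed in either direction, 9.13% higher and 9.26% lower. The share called was lower without asynchronous WT library 2. Slc7a6 rose 2.12-fold, with 324 ± 15.4 CPM in mitotic and 151 ± 20.5 CPM in asynchronous cells (SD, n = 2 each). Its log2 change was 1.09 (SE 0.21), with an adjusted p of 6.81e-05 in edgeR's quasi-likelihood test. Slc3a2 rose by 0.49 (SE 0.14, edgeR adjusted p = 0.00780) and Slc7a5 by 0.45 (SE 0.15, edgeR adjusted p = 0.0271). Slc38a1 gave 0.48 and Slc38a2 -0.36, with adjusted p of 0.0864 and 0.0807 in the same test. The 2 states did not overlap in either gene, but 2 libraries can easily separate from 2 others by chance. The share of all genes that did so was not counted. The median log2 change was 0.32 over the 8 genes and -0.00 over all genes tested. Slc7a6 passed in each of the 12 fits that left out 1 library. Slc7a5 did not pass without asynchronous WT library 1 (0.25, edgeR adjusted p = 0.386), mitotic WT library 1 (0.32, 0.279), mitotic WT library 2 (0.0503) or asynchronous S38A library 1, nor in DESeq2 or when only WT libraries were fitted (0.0505). Slc38a2 passed only without asynchronous WT library 1 (-0.51, 0.0352), and Slc3a2 did not pass without asynchronous WT library 2 (0.117), mitotic WT library 1 (0.0652) or mitotic WT library 2 (0.0648).

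In mitotic against asynchronous S38D cells the same 3 genes rose, and Slc1a4 fell. Of all tested genes 21.4% passed in either direction, 10.6% higher and 10.9% lower, and 10.6% in either direction without mitotic S38D library 2. Slc7a6 averaged 388 ± 2.35 CPM in mitotic and 173 ± 30.5 CPM in asynchronous S38D cells, a log2 change of 1.16 (SE 0.19, edgeR adjusted p = 1.49e-06). Slc3a2 rose by 0.55 (SE 0.13, adjusted p = 0.00124) and Slc7a5 by 0.47 (SE 0.15, adjusted p = 0.0148). The serine and alanine carrier gene Slc1a4 averaged 57.7 ± 27.6 CPM in mitotic and 107 ± 0.259 CPM in asynchronous S38D cells, a log2 change of -0.86 (SE 0.29, adjusted p = 0.0262). The median log2 change was 0.21 over the 8 genes and -0.03 over all genes. Slc1a4, with 10 and 22 reads in the mitotic S38D libraries, gave -0.44 (edgeR adjusted p = 0.471) without mitotic S38D library 1 and did not pass without asynchronous S38D library 1 (0.0701) or 2 (0.0538), nor in DESeq2 (0.117). Slc7a5 did not pass without mitotic S38D library 1 (0.0957), mitotic S38D library 2 (0.0623) or asynchronous S38D library 2 (0.0859), nor without the filter on low counts (0.0516).

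In S38A cells only Slc7a6 passed among the 8 genes, again higher in mitotic cells, with 18.6% of all genes called in either direction, 9.03% higher and 9.59% lower, and 10.1% in either direction without asynchronous S38A library 1. It averaged 253 ± 28.3 CPM in mitotic and 170.0 ± 43.7 CPM in asynchronous S38A cells, a log2 change of 0.56 (SE 0.20, edgeR adjusted p = 0.0368). Slc3a2 gave 0.11 (SE 0.14) and Slc7a5 0.12 (SE 0.16), with adjusted p of 0.650 and 0.664 and with overlapping libraries. Slc38a1 gave 0.53 (adjusted p = 0.110) and Slc1a5 -0.37 (adjusted p = 0.0933). The median log2 change was 0.00 over the 8 genes and -0.01 over all genes. The call of Slc7a6 was lost without asynchronous S38A library 2 (0.33, edgeR adjusted p = 0.414), mitotic S38A library 1 (0.266) or mitotic S38A library 2 (0.0576), and also in the DESeq2 Wald test (0.164) and without a filter on low counts (0.0510).

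**Figure D2:**
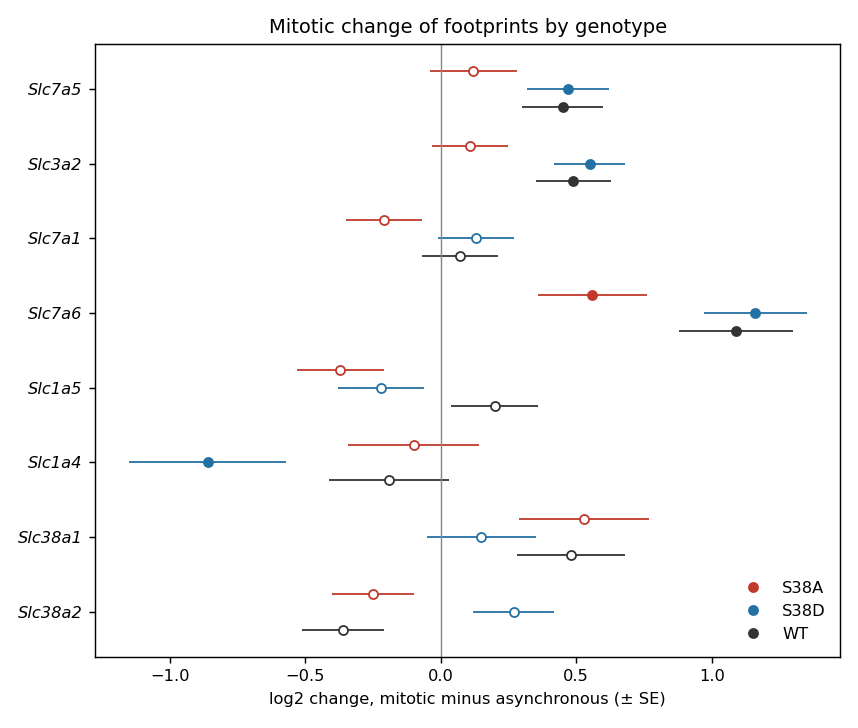
Log2 change of footprints, mitotic minus asynchronous (horizontal axis), for the 8 tested transporter genes in S38A, S38D and WT cells, with bars of 1 SE. Filled points passed edgeR's test at an adjusted p under 0.05 and open points did not. Slc7a6 is filled in all 3 genotypes, and Slc7a5 and Slc3a2 in S38D and WT.

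Averaged over genotypes, 4 of the 8 genes rose in mitotic cells and none fell, where 38.9% of all genes passed, 18.9% higher and 20.0% lower. The log2 changes were 0.94 (SE 0.12, edgeR adjusted p = 7.82e-09) for Slc7a6, 0.39 (SE 0.09, 6.64e-04) for Slc3a2 and 0.35 (SE 0.10, 0.00330) for Slc7a5. Slc38a1 was the only carrier outside the heterodimer group to pass, with a log2 change of 0.37 (SE 0.13, adjusted p = 0.0157). Slc38a1 did not pass without asynchronous WT library 1 (0.0558) or asynchronous S38D library 1 (0.0507). The median was 0.18 over the 8 genes and -0.01 over all genes.

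Whether the mitotic change differed between genotypes was tested directly, and none of the 8 genes passed in any of the 3 comparisons of genotypes. Over all genes, 0.448% passed for S38A minus WT, 0.0598% for S38D minus WT and 0.239% for S38D minus S38A, and in fits that left out 1 library these shares ran from 0.273 to 0.733%, from 0.0135 to 0.191% and from 0.0576 to 0.503%. At an unadjusted p under 0.05 edgeR gave 1, 1 and 3 of the 8 genes, and the share of all genes at that cut was not counted. At the adjusted threshold DESeq2, like edgeR, gave none. The mitotic change of Slc7a5 in S38A minus that in WT was -0.33 (95% interval -0.76 to 0.11, edgeR adjusted p = 0.678). For Slc3a2 the same difference was -0.38 (-0.77 to 0.00, adjusted p = 0.562), and for Slc1a5 it was -0.57 (-1.01 to -0.13, unadjusted p = 0.0142, adjusted p = 0.357). For S38D minus WT the lowest p was that of Slc38a2, whose mitotic change was 0.64 higher in S38D than in WT (0.22 to 1.05, unadjusted p = 0.00344, adjusted p = 0.410), while Slc1a4 gave -0.67 (-1.40 to 0.05, adjusted p = 0.783). Slc38a2 averaged 599 ± 21.3 CPM in mitotic and 496 ± 19.3 CPM in asynchronous S38D cells, and 513 ± 37.3 CPM in mitotic and 659 ± 81.0 CPM in asynchronous WT cells, so that the states were in opposite order. For S38D minus S38A the 3 genes were Slc38a2 (0.52, 0.11 to 0.94, edgeR adjusted p = 0.326), Slc3a2 (0.45, 0.07 to 0.83, 0.376) and Slc7a6 (0.60, 0.07 to 1.14, 0.405). In that comparison 6 of the 8 differences were positive and 2 negative. The median was 0.34 over the 8 genes and -0.05 over all genes. The share of all genes with positive differences was not counted. The passes in WT and S38D cells and their absence for Slc7a5 and Slc3a2 in S38A cells are therefore not shown to differ.

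In mitotic cells, 5 of the 8 genes fell in S38A against WT and none rose, and all 8 had negative log2 differences. The 5 were Slc7a5, Slc3a2, Slc7a1, Slc1a4 and Slc38a1, with 13.2% of all genes called in either direction, 7.79% higher and 5.44% lower, and 6.38% in either direction without mitotic S38A library 1. Slc7a5 averaged 399 ± 39.1 CPM in S38A and 778 ± 89.5 CPM in WT mitotic cells (SD, n = 2 each), 1.95-fold lower (log2 -0.96, SE 0.15, edgeR adjusted p = 1.20e-06). Slc38a1 averaged 146 ± 8.04 CPM in S38A and 272 ± 10.5 CPM in WT (log2 -0.90, SE 0.20, adjusted p = 6.90e-04). Slc7a1 averaged 532 ± 10.5 CPM in S38A and 896 ± 3.41 CPM in WT (log2 -0.75, SE 0.14, adjusted p = 3.46e-05). On the same scale Slc3a2 fell by 0.53 (SE 0.13, adjusted p = 0.00344) and Slc1a4 fell by 0.65 (SE 0.23, adjusted p = 0.0431). Slc1a5, Slc7a6 and Slc38a2 gave -0.40, -0.35 and -0.17, with adjusted p of 0.0887, 0.206 and 0.522. The median log2 difference was -0.59 over the 8 genes and -0.01 over all genes. Slc7a5, Slc7a1 and Slc38a1 passed in all 12 fits that left out 1 library, whereas Slc3a2 did not pass without mitotic WT library 1 (0.0567), mitotic WT library 2 (just at the threshold) or mitotic S38A library 1 (0.0791). Slc1a4 passed in 6 of the 12, and failed without mitotic WT library 1 (0.257) or 2 (0.126), either mitotic S38A library (0.145 without library 1), asynchronous S38A library 2 (0.0545) or mitotic S38D library 2 (0.0589), and its adjusted p was 0.0525 with the replicate number as a block, 0.201 in DESeq2, 0.0895 without a filter and 0.0626 with a mean of at least 10 CPM.

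In asynchronous cells, 4 of the 8 genes fell in S38A against WT and none rose, where 9.32% of all genes passed, 5.86% higher and 3.47% lower, and 3.77% passed without asynchronous S38A library 1. These were Slc38a1, Slc1a4, Slc7a5 and Slc7a1, all among the 5 of mitotic cells, which are other libraries of the same cells. Slc38a1 averaged 101 ± 1.03 CPM in S38A and 194 ± 20.6 CPM in WT, 1.93-fold lower (log2 -0.95, SE 0.24, edgeR adjusted p = 0.00452). Slc7a5 averaged 368 ± 33.3 CPM in S38A and 567 ± 99.3 CPM in WT (log2 -0.63, SE 0.16, adjusted p = 0.00491), Slc7a1 fell by 0.47 (SE 0.14, adjusted p = 0.0208) and Slc1a4 by 0.74 (SE 0.23, adjusted p = 0.0301). Slc3a2, which fell in mitotic cells, gave -0.15 (95% interval -0.43 to 0.13, adjusted p = 0.610) with overlapping libraries. The median log2 difference was -0.37 over the 8 genes and 0.01 over all genes. None of the 4 passed without asynchronous WT library 2 (adjusted p of 0.203 for Slc7a5, 0.0912 for Slc7a1, 0.177 for Slc1a4 and 0.101 for Slc38a1) or without asynchronous S38A library 1 (0.102, 0.0642, 0.151 and 0.0513 in the same order of genes), so that the count ran from 0 to 4. Slc7a1 also failed without asynchronous S38A library 2 (0.189) and Slc1a4 without that library (0.124) or asynchronous WT library 1 (0.0744), and Slc1a4 also in DESeq2 (0.182) and without a filter (0.0558), although log2 differences kept their sign in all these fits.

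In S38D against WT, the same WT libraries being used, Slc1a4 was the only one of the 8 genes to pass, in both states. DESeq2 gave Slc1a4 no adjusted p here in either state. In mitotic cells it averaged 57.7 ± 27.6 CPM in S38D and 171 ± 14.5 CPM in WT, 2.90-fold lower (log2 -1.53, SE 0.28, edgeR adjusted p = 2.19e-04), where 1.82% of all genes passed, 0.702% higher and 1.12% lower, and 0.529% passed without mitotic S38D library 2. In asynchronous cells it averaged 107 ± 0.259 CPM in S38D and 193 ± 8.05 CPM in WT (log2 -0.86, SE 0.22, adjusted p = 0.0148), where 3.33% passed, 1.48% higher and 1.85% lower, and 1.42% passed without asynchronous WT library 2. The split of all called genes moved with the scaling: in mitotic cells it was 47 higher and 75 lower, against 68 and 64 with DESeq2 size factors and 35 and 90 with library totals, and in asynchronous cells it was 99 and 124, against 76 and 160 with library totals. The other 7 genes lay between -0.39 for Slc38a1 and 0.26 for Slc7a6 in mitotic cells and between -0.42 for Slc38a2 and 0.34 for Slc1a5 in asynchronous cells. For Slc7a5 the difference was -0.06 in mitotic cells (95% interval -0.35 to 0.22) and -0.08 in asynchronous cells (-0.38 to 0.21), and for Slc7a1 it was -0.17 (-0.44 to 0.10) and -0.22 (-0.49 to 0.04). The median over the 8 genes was -0.07 in both states, against all-gene medians of -0.01 in mitotic and 0.02 in asynchronous cells. The mitotic call of Slc1a4 was lost without mitotic S38D library 1 (log2 -1.13, adjusted p = 0.0988). The asynchronous one was lost without asynchronous WT library 2 (0.165), asynchronous S38D library 1 (0.0547) or asynchronous S38D library 2 (0.0609), and when only the libraries compared were fitted (0.0649).

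**Figure D3:**
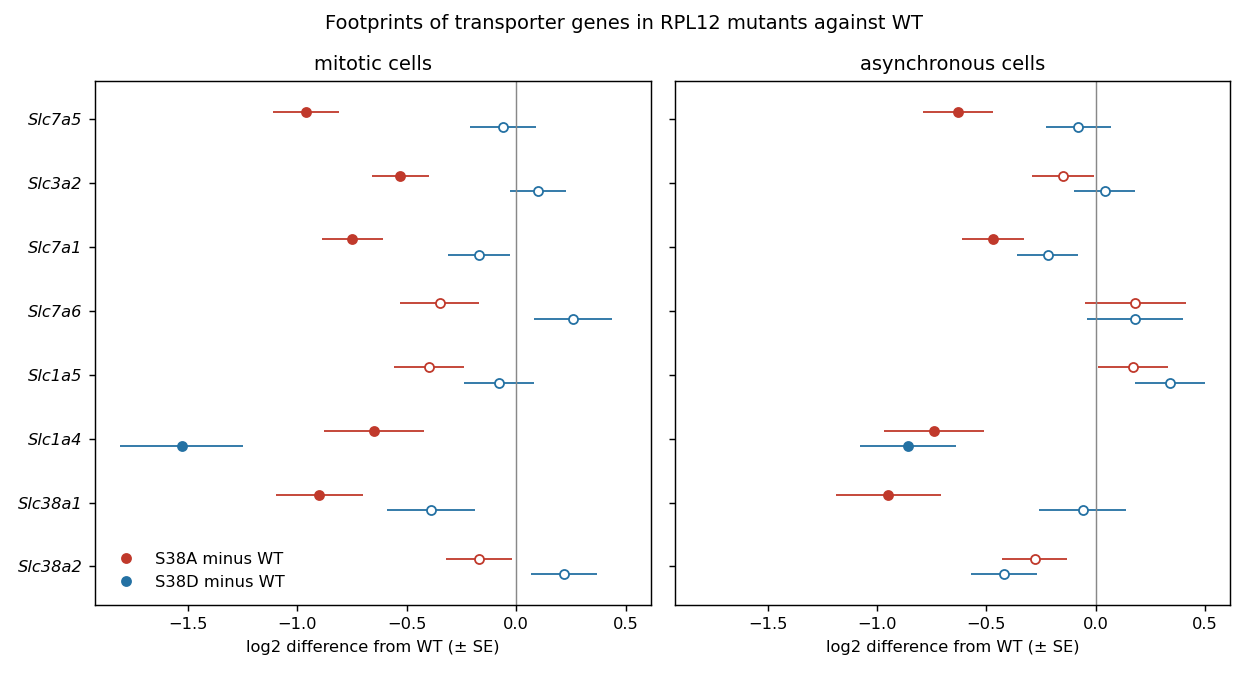
Log2 difference of footprints from WT (horizontal axes) in S38A and S38D cells for the 8 tested transporter genes, mitotic cells left and asynchronous cells right, with bars of 1 SE. Filled points passed edgeR's test at an adjusted p under 0.05. Slc7a5, Slc7a1, Slc1a4 and Slc38a1 are filled for S38A in both states, and Slc1a4 alone for S38D.

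The substitutions were also compared directly. In mitotic cells, 4 of the 8 genes were higher in S38D than in S38A and 1 was lower, where 12.9% of all genes passed, 6.14% higher and 6.77% lower (411 and 453 genes, against 474 and 394 with DESeq2 size factors), and 5.04% in either direction without mitotic S38D library 2. The 4 were Slc7a5 (log2 0.90, SE 0.15, edgeR adjusted p = 1.31e-05), Slc3a2 (0.64, SE 0.14, 5.02e-04), Slc7a6 (0.61, SE 0.18, 0.0152) and Slc7a1 (0.59, SE 0.14, 0.00233). Slc7a5 averaged 743 ± 18.3 CPM in S38D and 399 ± 39.1 CPM in S38A mitotic cells, and Slc3a2 averaged 1054 ± 42.0 CPM in S38D and 678 ± 27.0 CPM in S38A. Slc1a4 went the other way, with a log2 difference of -0.88 (SE 0.30, adjusted p = 0.0381). The median was 0.55 over the 8 genes and -0.03 over all genes. Slc7a5, Slc3a2 and Slc7a1 passed in all 12 fits that left out 1 library. Slc7a6 did not pass without mitotic S38A library 2 (0.159), mitotic S38D library 1 (0.0831) or mitotic S38D library 2 (0.0907), nor in DESeq2 (0.0562), whereas Slc38a2, at 0.39 and an adjusted p of 0.0782, passed without asynchronous WT library 1 (0.0398) or 2 (0.0496). Slc1a4 passed in 5 of the 12, with -0.46 (adjusted p = 0.520) without mitotic S38D library 1, 0.198 without mitotic S38A library 1, 0.0898 without mitotic S38A library 2, and 0.0513 to 0.0530 without either mitotic WT library, asynchronous WT library 1 or asynchronous S38A library 1. Its adjusted p was 0.138 in DESeq2, 0.0621 without a filter and 0.0521 with DESeq2 size factors.

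In asynchronous cells 2 of the 8 genes were higher in S38D than in S38A and none was lower, where 8.71% of all genes passed, 3.71% higher and 5.01% lower, and 2.28% passed without asynchronous S38A library 1. Slc38a1 averaged 189 ± 46.4 CPM in S38D and 101 ± 1.03 CPM in S38A (log2 0.89, SE 0.22, edgeR adjusted p = 0.00547), and Slc7a5 averaged 537 ± 26.7 CPM in S38D and 368 ± 33.3 CPM in S38A (log2 0.55, SE 0.15, adjusted p = 0.0146). Both lost the call without asynchronous S38A library 1 (0.0872 for Slc38a1 and 0.234 for Slc7a5), and Slc38a1 also without asynchronous S38D library 2 (0.148) and Slc7a5 without asynchronous S38D library 1 (0.0724). The medians were 0.18 over the 8 genes and -0.00 over all genes. These comparisons use the same S38A libraries as those against WT, so a low S38A library enters both.

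**Figure D4:**
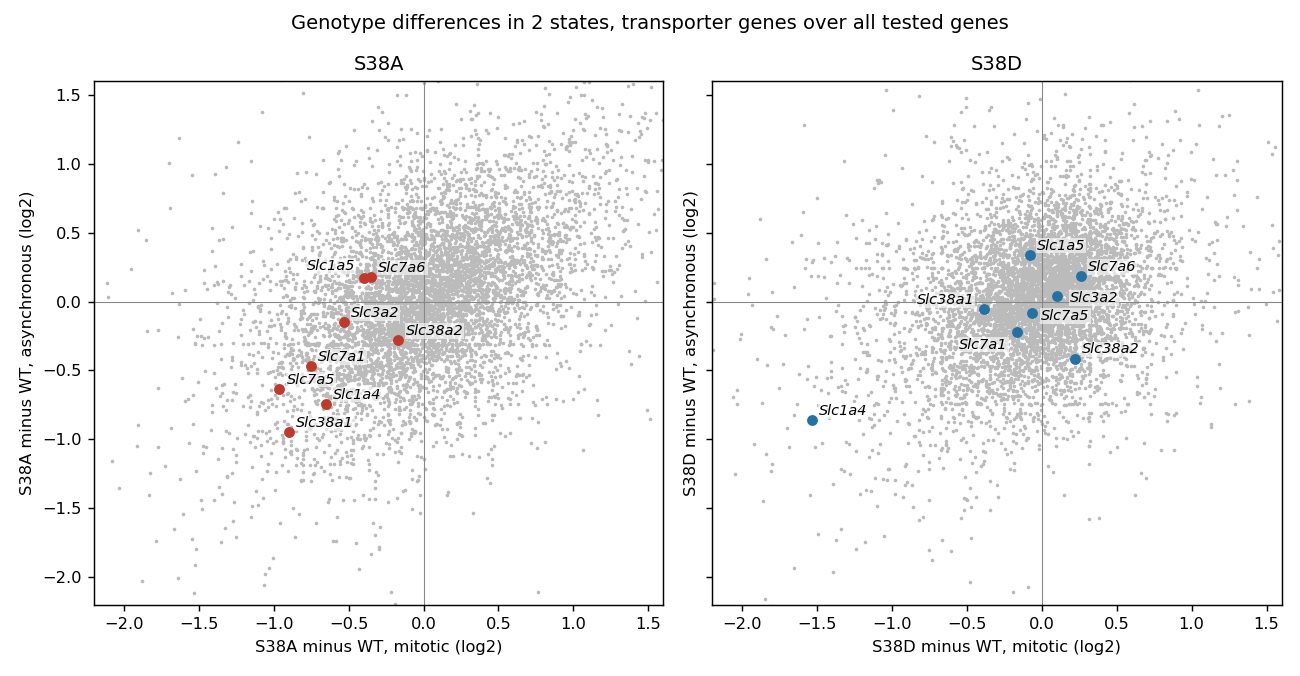
Log2 difference from WT in mitotic cells (horizontal axes) against that in asynchronous cells (vertical axes), for S38A left and S38D right, with the 8 transporter genes in colour over all tested genes in grey. Slc7a5, Slc7a1, Slc1a4 and Slc38a1 lie in the lower left for S38A, and Slc1a4 alone lies far from the centre for S38D. Axes run from -2.2 to 1.6, which leaves 131 genes outside for S38A and 61 for S38D.

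Whether libraries separated without overlap was also counted over all 12 libraries, by rules chosen after the values were seen. All 4 S38A libraries lay below the 8 others in Slc7a5, Slc7a1 and Slc38a1, which is 3 of the 8 tested genes, against 1.32% of all tested genes. All 8 mutant libraries lay below the 4 WT libraries in Slc7a1 and Slc1a4, 2 of the 8, against 1.27% of all tested genes, and in the untested Slc7a11. None of the 8 had all S38A libraries above the others, against 2.35% of genes, or all mutant libraries above WT, against 0.822%. Without the filter on low counts, Slc7a11 could be fitted among 11680 genes and its difference from WT was -1.88 in asynchronous S38D (SE 0.75, edgeR adjusted p = 0.211), -1.06 in asynchronous S38A (0.594), -1.43 in mitotic S38D (0.670) and -1.18 in mitotic S38A cells (0.391). None of these passed, and a gene with 2 to 9 reads per library carries wide counting error.

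Reads of 1 transporter gene over those of another in the same library do not depend on library scaling and were compared between libraries only, with no test and with pairs chosen after the values were seen. The ratio of Slc7a5 to its partner Slc3a2 was 0.564 and 0.612 in mitotic S38A, 0.697 and 0.712 in mitotic S38D and 0.848 and 0.738 in mitotic WT libraries. In asynchronous libraries it was 0.581 and 0.585 in S38A, 0.788 and 0.711 in S38D and 0.668 and 0.970 in WT. The 4 S38A libraries were lower than the 8 others, the nearest being 0.612 against 0.668, so Slc7a5 was lower relative to Slc3a2 in both states. The share of gene pairs that separate in this way was not counted. The ratio of Slc7a6 to Slc3a2 was 0.324 to 0.415 in the 6 mitotic libraries and 0.184 to 0.339 in the 6 asynchronous ones, and the ranges overlapped through asynchronous S38A library 1. The neighbours Slc38a1 and Slc38a2 stood at 0.346 and 0.294 in mitotic against 0.188 and 0.183 in asynchronous S38A libraries, and at 0.545 and 0.519 in mitotic against 0.299 and 0.292 in asynchronous WT libraries. In S38D they stood at 0.379 and 0.320 in mitotic and 0.323 and 0.435 in asynchronous libraries, which overlapped. The ratio of Slc1a4 to Slc1a5 was lowest in mitotic S38D, at 0.0654 and 0.156, and highest in asynchronous WT, at 0.462 and 0.345.

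**Figure D5:**
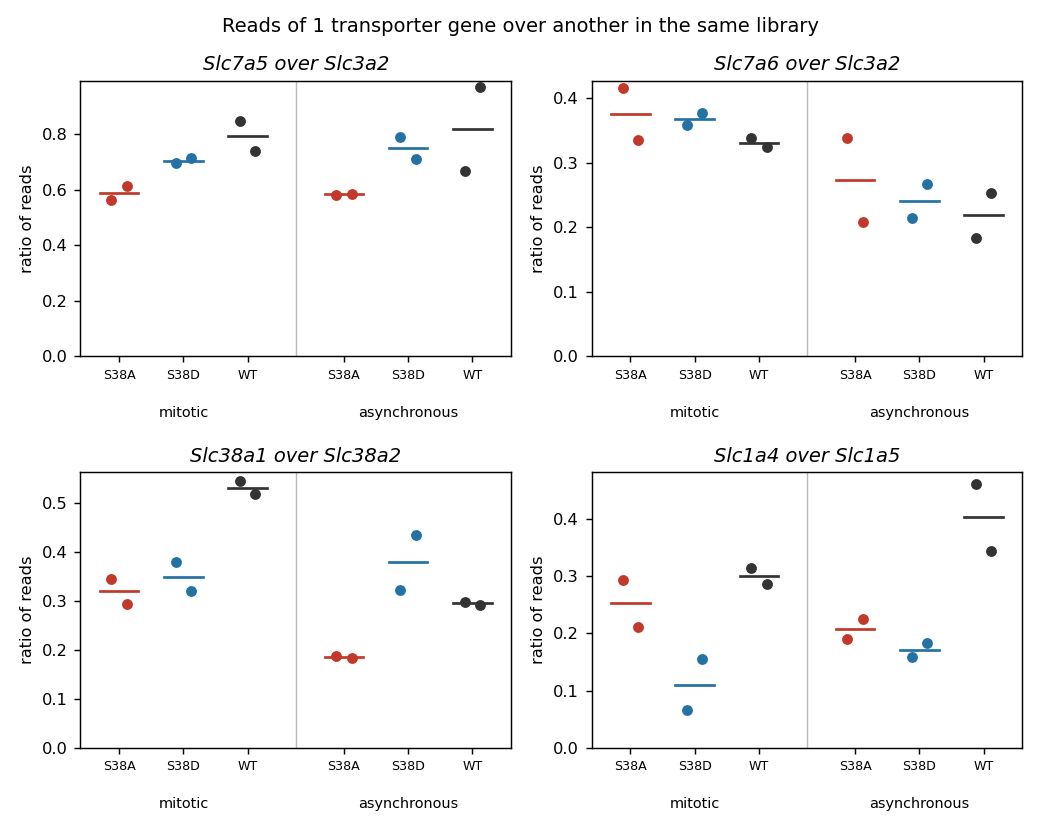
Ratio of the reads of 1 transporter gene to those of another in the same library (vertical axes, starting at 0), by genotype and state, with 2 libraries per group as points and lines at their mean. Slc7a5 over Slc3a2 is lowest in the 4 S38A libraries, and Slc38a1 over Slc38a2 is higher in mitotic than in asynchronous libraries of S38A and WT.

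The genes were also ranked by how closely their 6 group means followed those of Slc7a5, as the root mean square difference of log2 CPM after each gene was centred on its own mean, among 4258 genes with a mean of at least 50 CPM. The closest of all were 2 genes known here only as ENSMUSG00000014867.9, with a difference of 0.1018, and ENSMUSG00000015575.14, with 0.1035. Of the other transporter genes, Slc38a1 ranked 37 (0.157), the heavy chain gene Slc3a2 ranked 75 (0.186) and Slc7a1 ranked 136 (0.213). Slc1a5, Slc38a2 and Slc7a6 ranked 1179, 1205 and 1449, and Slc1a4 was the least alike at 3554. These ranks describe 6 points that share their libraries and carry no test.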

How the data were processed

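The authors deposited, for each of the 12 libraries, whole-number read counts for 22520 Ensembl gene IDs and 5 summary rows, which entered neither library sizes nor tests (ambiguous reads were 0.524 to 0.677% and reads outside features 18.0 to 34.6% of those aligned uniquely). Per the submitters' processing notes, the build was mm10 and the tools were HTSeq 0.9.1, STAR 2.5.3a, DESeq2 1.18.1, Bowtie2 2.3.2 and bcl2fastq 2.16.0.10. Their roles and any strand setting are not stated, and overlapping and antisense genes may share reads. The quasi-likelihood F test of edgeR 4.0.16 (R 4.3.3), with TMM scaling and filterByExpr at a minimum count of 10, was run on these counts over 6692 genes, in 1 model of 6 groups, or with genotype and state as separate terms for the averaged change. Benjamini-Hochberg adjusted p under 0.05 over all tested genes was the threshold in each of 13 comparisons. The common biological coefficient of variation was 0.0868. SE is the log2 difference divided by the root of F, and 95% intervals are normal ones from this SE. The fit was checked on simulated counts drawn independently for each library, which cannot show whether the libraries of a group are separate cultures.

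Alternatives were DESeq2 size factors, library totals, the DESeq2 1.42.0 Wald test, no filter, a mean of at least 10 CPM, a replicate block, only the libraries compared, and leaving out each library. The filter on low counts was applied again in each fit that left out a library. Shares called in those fits are therefore of the genes tested there. Replicate numbers are shared between groups. Deviations of same-numbered libraries correlated at -0.232 to 0.092 over 15 pairs of groups, none over 0.1, so the numbers were not taken as pairs. The 2 libraries of each group differed by more than counting noise or about as much, chi-square over its degrees of freedom being 1.06 to 1.90, and none was counted as a repeat.

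The 9 genes, and the lists of motifs and other genes, were chosen with earlier results of these data known. All 9 are named in every comparison or counted. Their IDs were given with their symbols when the genes were chosen. No table used here pairs other Ensembl IDs with symbols (0 IDs matched), so other amino acid transporters, regulators such as Myc and Atf4, and cell type markers were not analysed here. Gene positions and promoters are from RefSeq, GRCm38.p6, the assembly that mm10 names.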

Additional observations from a re-analysis of the deposited data

How the results depend on the processing

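No called log2 difference of the 8 tested genes changed sign under the alternatives tried. Differences that were not called changed sign in 25 refits without 1 library and in 5 others. The 30 calls of single genes were kept in 191 of 208 refits that kept all libraries, and in 304 of 360 that left out 1 library. Of the 17 losses with all libraries kept, 11 were of Slc1a4, 3 of Slc7a5 and 3 of Slc7a6. Calls were gained when only the libraries compared were fitted, for Slc1a5 in mitotic S38A against WT and for Slc38a1 and Slc38a2 in mitotic S38D against S38A, for Slc38a2 there also with DESeq2 size factors, and for Slc1a4 in the averaged change as a mean of contrasts. Of the 13 counts of genes called, 3 moved under other alternatives by more than 1.5 times. In S38A cells, mitotic against asynchronous, the count was 0 of 8 genes in DESeq2 and 0 of 9 without a filter, against 1. For S38D against WT in asynchronous cells it was 0, against 1, when only the libraries compared were fitted. For S38D against S38A in mitotic cells it was 3, against 5, in DESeq2. Leaving out 1 library gave 1 to 3 genes for the mitotic change in WT, 0 to 1 in S38A, 2 to 4 in S38D and 3 to 4 averaged. For S38A against WT it gave 3 to 5 genes in mitotic and 0 to 4 in asynchronous cells. For S38D against WT it gave 0 to 1 in each state, and for S38D against S38A 3 to 6 in mitotic and 0 to 2 in asynchronous cells. In these refits a group has 1 library, assumed to vary like the others. With the replicate block, S38A against WT in mitotic cells had 4 genes called in place of 5, Slc1a4 being lost, and no other call changed. DESeq2 gave no adjusted p for Slc1a4 in S38D against WT in either state. These refits are not among the 208, and DESeq2 counts were compared only over genes with an adjusted p. The cause of the lost calls was not tested. Over all genes DESeq2 called fewer: for the mitotic change 565 against 1246 in S38A, 749 against 1435 in S38D and 608 against 1231 in WT. For S38A against WT it called 350 against 885 in mitotic and 238 against 624 in asynchronous cells, for S38D against WT 58 against 122 and 66 against 223, and for S38D against S38A 361 against 864 and 152 against 583. When only the libraries compared were fitted, S38D against WT had 228 calls against 122 in mitotic and 70 against 223 in asynchronous cells. Leaving out 1 library gave 702 to 1340 calls over all genes for the mitotic change in S38A, 782 to 1465 in S38D and 647 to 1325 in WT, 443 to 976 and 262 to 718 for S38A against WT in mitotic and asynchronous cells, 39 to 158 and 104 to 224 for S38D against WT, and 371 to 957 and 158 to 593 for S38D against S38A. Beside the libraries named in the text, counts were over 1.5 times lower without either mitotic WT library or mitotic S38A library 2 for S38A against WT in mitotic cells (467 to 550), without mitotic S38D library 1 or either mitotic WT library for S38D against WT (50 to 60), and without mitotic S38D library 1 or either mitotic S38A library for S38D against S38A (455 to 487). In asynchronous cells this held without S38A library 2 or WT library 2 for S38A against WT (406 and 327) and without S38D library 2 or S38A library 2 for S38D against S38A (388 and 313), and for the mitotic change without mitotic S38A library 1 or 2 (714 and 817), mitotic S38D library 1 (868) and mitotic WT library 1 or 2 (817 and 702). Depth limits Slc7a11 most, with 2 to 9 reads per library, and Slc1a4 in mitotic S38D, with 10 and 22.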
